A study of Mus musculus with 9 samples.

Results

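Integrins are the paired surface receptors through which cells hold on to extracellular matrix or to other cells, and laminins and collagens are the matrix proteins that many of them bind. All genes whose symbol names an integrin alpha or beta chain, a laminin chain or a collagen chain were taken from a table of mouse epidermal keratinocytes, which gave 85 of 36442 genes. Of these, 32 carry integrin names, 11 are laminins and 42 are collagens. The integrin names were also taken from a table of regulatory T cells (Tregs), where they gave 31 of 24016 symbols, each read from its transcript of highest mean. The names alone chose the genes, with no cut on their values. A few of the names do not stand for a receptor chain: Itgb1bp1, Itgb1bp2, Itgb1bp3 and Itgb3bp are binding proteins, and Itgbl1 is an integrin-like protein.

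RNA was sequenced from sorted cells of mice. Keratinocytes were taken from the epidermis of adult mice, in a Mi2 group of 2 libraries and a WT group of 2 libraries. The Treg samples came from lymph nodes that drain the skin, in 3 groups: TSLPR-negative Tregs of the Mi2 setting (1 library), TSLPR WT Tregs of the Mi2 setting (2 libraries) and control Tregs named Ctl (2 libraries). Headers of the tables tag the Mi2 libraries "Mi2KO", for a knock-out, and the Ctl Treg libraries "WT", and TSLPR is the receptor for the cytokine TSLP, whose specific chain is encoded by Crlf2. The sources used here do not give how the Mi2 alteration was made and in which cells, how TSLPR was lost, the age of the mice in weeks or the surface markers of the sort. The TSLPR-negative column was tied to its sample by its name, TMDKO, and the sample's title, and the column names call all of these cells skin Tregs. The labels do not say that the replicates of a group came from separate mice, so p-values measure only the spread between these libraries.

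Chd4, which encodes the chromatin remodeller Mi-2beta, had 734 and 1207 normalized reads in the Mi2 epidermal libraries, against 1607 and 1942 in the WT libraries. Crlf2 had 51.5 normalized reads in the TSLPR-negative library, 816 and 715 in the TSLPR WT Mi2 libraries and 395 and 742 in the Ctl libraries. The epidermal libraries held 5682391 to 8913804 recovered reads and the Treg libraries 21849381 to 32238992. The share of mitochondrially encoded reads was 29.7% and 15.5% in the Mi2 epidermal libraries, against 13.8% and 12.9% in the WT libraries. The 9 keratinocyte markers summed to 322889 and 280525 normalized reads in the Mi2 libraries, against 319576 and 296535 in the WT libraries. Of these 9, 0 were called higher and 2, Krt15 and Krt1, lower, by the threshold given below. Krt15 had 4202 and 8781 normalized reads in the Mi2 libraries, against 49093 and 40508 in the WT libraries. Krt1 had 4503 and 8896 in the Mi2 libraries, against 21522 and 18749 in the WT libraries. The part of these shifts in the values below was not tested. Values of a pair of libraries are given in the order of their replicate numbers throughout.

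In the epidermis, basal keratinocytes sit on a basement membrane built from laminins and type IV collagen. They are anchored there by hemidesmosomes, in which integrin α6β4 and the transmembrane collagen XVII bind laminin-332, and collagen VII fibrils tie the membrane to the dermis. In lymphocytes, integrins such as αLβ2, α4β7 and αEβ7 serve adhesion to other cells and homing to tissues.

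Several of these genes lie in head-to-head pairs whose chains build 1 heterotrimer family, so the sequences around their starts are shown first. Col4a5 and Col4a6, the pair that fell in Mi2 epidermis, start 1343 bases apart on chromosome X, and Col4a1 and Col4a2, which were not called, start 21 bases apart on chromosome 8 with 78 bases shared between their windows. Itga5, which was called in opposite directions in keratinocytes and in Tregs, is shown with them. Each sequence is the RefSeq window from 250 bases before to 50 bases after the gene's start on GRCm38.p6, written 5′ to 3′ on the gene's own strand. Capitals mark matches to the GC box GGGCGG or to CCAAT on either strand.
Col4a5, chrX:141475169-141475468, plus strand: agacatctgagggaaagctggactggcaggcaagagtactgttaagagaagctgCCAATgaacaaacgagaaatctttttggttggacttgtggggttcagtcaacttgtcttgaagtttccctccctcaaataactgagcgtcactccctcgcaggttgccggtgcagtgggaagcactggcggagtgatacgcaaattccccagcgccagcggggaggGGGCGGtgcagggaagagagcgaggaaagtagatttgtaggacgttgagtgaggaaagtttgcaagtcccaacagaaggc
Col4a6, chrX:141474027-141474326, minus strand: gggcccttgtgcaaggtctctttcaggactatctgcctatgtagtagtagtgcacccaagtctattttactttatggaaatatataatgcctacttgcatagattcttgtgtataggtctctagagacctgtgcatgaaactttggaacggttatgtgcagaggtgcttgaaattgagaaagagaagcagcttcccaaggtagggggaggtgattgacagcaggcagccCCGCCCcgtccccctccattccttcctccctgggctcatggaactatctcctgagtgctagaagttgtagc
Col4a2, chr8:11312555-11312854, plus strand: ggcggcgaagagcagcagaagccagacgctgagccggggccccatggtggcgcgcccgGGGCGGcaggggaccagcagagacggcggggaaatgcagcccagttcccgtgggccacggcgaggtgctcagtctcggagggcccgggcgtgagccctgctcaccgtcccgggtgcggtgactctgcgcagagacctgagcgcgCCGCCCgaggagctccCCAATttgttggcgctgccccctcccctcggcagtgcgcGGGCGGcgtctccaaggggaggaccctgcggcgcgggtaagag
Col4a1, chr8:11312777-11313076, minus strand: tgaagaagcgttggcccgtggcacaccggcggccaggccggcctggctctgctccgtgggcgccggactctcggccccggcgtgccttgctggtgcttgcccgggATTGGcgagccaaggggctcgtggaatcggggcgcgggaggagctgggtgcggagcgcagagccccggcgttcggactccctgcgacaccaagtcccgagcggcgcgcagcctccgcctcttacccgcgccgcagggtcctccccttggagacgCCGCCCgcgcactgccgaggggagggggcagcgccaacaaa
Itga5, chr15:103366742-103367041, minus strand: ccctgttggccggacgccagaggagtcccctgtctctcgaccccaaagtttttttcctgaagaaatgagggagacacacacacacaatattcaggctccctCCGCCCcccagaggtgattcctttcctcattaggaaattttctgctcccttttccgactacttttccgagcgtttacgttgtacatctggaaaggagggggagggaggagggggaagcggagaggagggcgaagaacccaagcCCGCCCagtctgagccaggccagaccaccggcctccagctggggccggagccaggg

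The GC box occurred in all 5 windows, 3 times in Col4a2, 2 times in Itga5 and once in each of the others. It occurs in 35.7% of the 32851 windows of the RefSeq table. CCAAT occurred once in Col4a5, Col4a2 and Col4a1 and was not found in Col4a6 or Itga5, and 37.4% of all windows hold it. The letters TATAAA (13.6% of all windows) and the AP-1 motif TGANTCA (7.81% of all windows) were searched on both strands as well and had no match in these 5 windows. No match overlapped another. A match describes these letters only, and RefSeq windows were found for 61 of the 85 genes.

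Of the 85 genes, 45 had a mean of at least 10 normalized reads over the 4 epidermal libraries and were tested, and 40 did not. A gene is called here at a Benjamini-Hochberg adjusted p under 0.05 over all 14461 genes tested with limma on log2(normalized reads + 1), the scale of every fold change below. In Mi2 against WT epidermis, 12 of the 45 were called higher and 8 lower, where 28.2% of all genes tested were called, 15.1% higher and 13.1% lower. The median change of the 45 was -0.01 on the log2 scale, against -0.03 over all genes. By role, 5 of 15 integrin chains were higher and 0 lower, 3 of 8 laminins were higher and 2 lower, 3 of 7 basement membrane and anchoring collagens were lower and 0 higher, and the remaining collagens split between both directions. Genes that passed the filter only through the group in which they are high had to differ, so these counts describe the genes tested and not all 85.

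**Figure D1:**
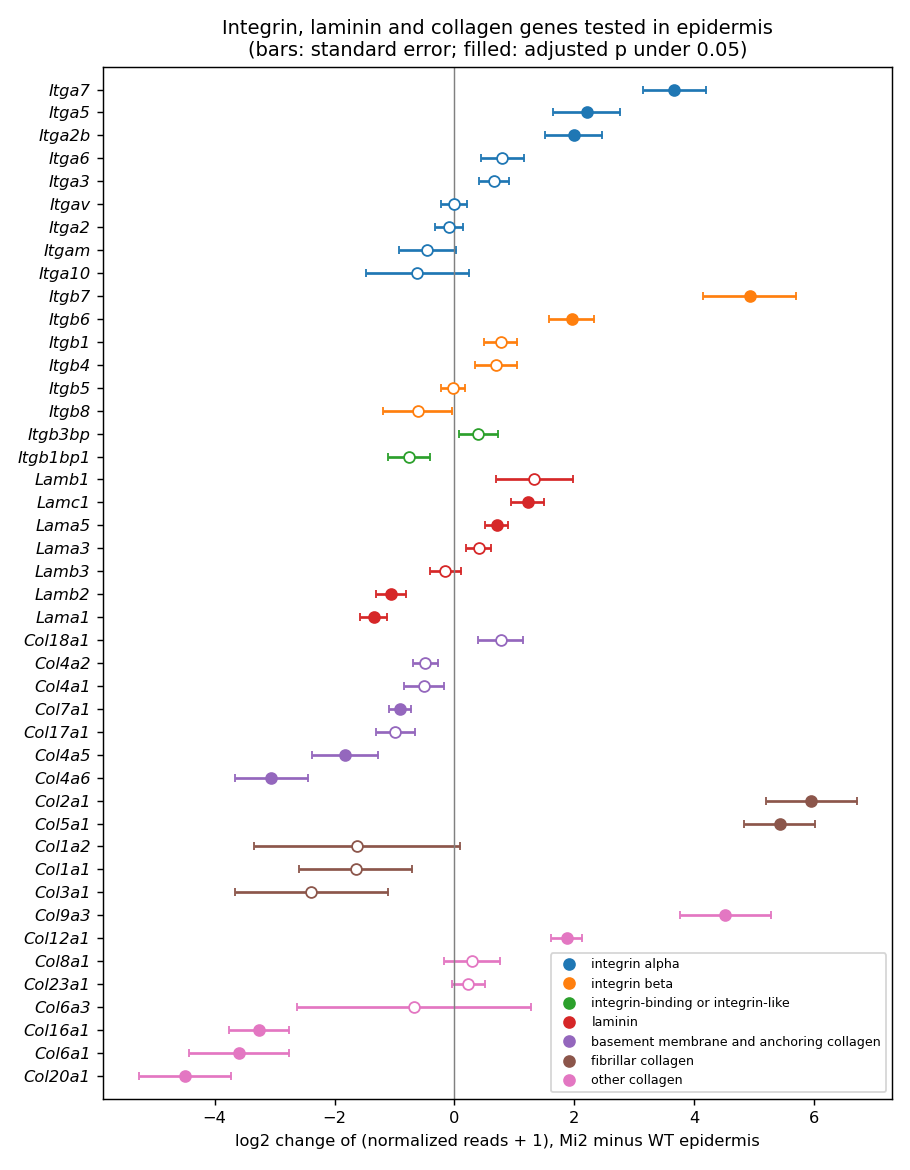
Log2 change of normalized reads + 1 (x axis, Mi2 minus WT epidermis) for 44 of the 45 genes tested, grouped by role, with standard errors as bars and filled symbols for adjusted p under 0.05 (limma). All filled integrin symbols lie to the right of 0, and the filled basement membrane and anchoring collagens Col4a5, Col4a6 and Col7a1 lie to the left.

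The hemidesmosome chains showed no call among the receptors. Itga6, the α6 chain, had 15205 and 7579.6 normalized reads in the Mi2 libraries, against 6302 and 6043 in the WT libraries. Its partner Itgb4 had 14299 and 7208 normalized reads in the Mi2 libraries, against 6031 and 6504 in the WT libraries. For both genes the Mi2 libraries lay above the WT libraries, and Mi2 replicate 1, the library with 29.7% mitochondrial reads, stood far above the other 3. The differences were 0.80 ± 0.35 (SE) for Itga6 and 0.70 ± 0.35 for Itgb4 on the log2 scale, with adjusted p = 0.131 and 0.174. Itga6 was called with DESeq2 on recovered reads of all 4 libraries (adjusted p = 0.033), and without Mi2 replicate 2 both genes were called, with adjusted p = 0.0165 and 0.0203. The mitochondrial share's part in this was not tested. Per kilobase of exon, Itgb4 averaged 1533 normalized reads in Mi2 epidermis and 893 in WT epidermis, and Itga6 averaged 1262 and 684 in the same order, so these were the most abundant integrin chains of the epidermal table by this measure.

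Col17a1, the transmembrane collagen of the hemidesmosome, had 21051 and 17693 normalized reads in the Mi2 libraries, against 39120.4 and 37475 in the WT libraries. The groups were apart by far more than the difference within either pair, and the change was -0.99 ± 0.33 on the log2 scale with adjusted p = 0.0613, which missed the threshold. It was called with DESeq2 on recovered reads (adjusted p = 0.000248), without the intensity trend of limma (0.044) and with mitochondrial genes left out of the scaling (0.0144). Col7a1, the anchoring fibril collagen, had 865 and 925 normalized reads in the Mi2 libraries, against 1739 and 1626 in the WT libraries. It fell by 0.91 ± 0.18 on the log2 scale (limma adjusted p = 0.0134), and its pairs of libraries were close to each other. With 1 WT library left out the Col7a1 call ended, at adjusted p = 0.125 without WT replicate 1 and 0.0824 without WT replicate 2. Per kilobase, Col17a1 averaged 3223 normalized reads in Mi2 and 6371 in WT epidermis, the highest of all 85 genes in both groups.

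Lama3 and Lamb3 encode chains of laminin-332, the ligand of α6β4, and neither was called. Lama3, the α3 chain, had 2512 and 2047 normalized reads in Mi2 and 1597 and 1841 in WT epidermis, a change of 0.40 ± 0.21 (adjusted p = 0.183). Lamb3, the β3 chain, had 3958 and 2576 in Mi2 and 3759 and 3338 in WT epidermis, a change of -0.15 ± 0.26 (adjusted p = 0.691). The Mi2 and WT libraries were apart for Lama3 and overlapped for Lamb3. The difference between these chains was not tested.

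Of the other laminins described here, Lamc1 and Lama5 were higher and Lama1 and Lamb2 lower. Lamc1, the γ1 chain common to most laminins, had 1469 and 856 normalized reads in the Mi2 libraries, against 449.5 and 513 in the WT libraries (log2 change 1.22 ± 0.28, limma adjusted p = 0.0194). Lama5, the α5 chain of the laminins of adult epithelial basement membranes, had 2506 and 2855 normalized reads in the Mi2 libraries, against 1588 and 1697 in the WT libraries (0.70 ± 0.20, adjusted p = 0.0359). For both genes every Mi2 library lay above every WT library. Lama1, an α chain best known from embryonic basement membranes, had 118 and 102 normalized reads in the Mi2 libraries, against 264 and 298 in the WT libraries (-1.35 ± 0.22, adjusted p = 0.00728). Lamb2, the β2 chain, had 280.0 and 444 in the Mi2 libraries, against 744 and 723 in the WT libraries (-1.05 ± 0.25, adjusted p = 0.023). Its paralog Lamb1, the β1 chain, had 295 and 64 normalized reads in Mi2 and 46.6 and 62.4 in WT epidermis and was not called (1.33 ± 0.64, adjusted p = 0.157). Mi2 replicate 1 lay far above the other 3 libraries for Lamb1, and Mi2 replicate 2 lay at the WT level. Lamb1 was called with DESeq2 on all 4 libraries (adjusted p = 0.0262) and without Mi2 replicate 2 (0.00884).

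With WT replicate 1 left out, the calls of these 4 laminins ended (limma adjusted p = 0.0619 for Lama1, 0.113 for Lamc1, 0.137 for Lamb2 and 0.221 for Lama5), and without WT replicate 2 they ended too (0.0809, 0.0619, 0.11 and 0.151 in that order). The direction of these 4 changes was the same in every alternative tried. With mitochondrial genes left out of the scaling, which moved the median of all genes to -0.27, Lama5 alone among the 4 lost its call (0.47 on the log2 scale, adjusted p = 0.127). Without the trend the calls of Lamc1 (0.0614), Lamb2 (0.068) and Lama5 (0.0864) ended, and without the filter that of Lama5 (0.0533). Lama2, Lama4 and Lamc3 were below the filter, the highest of them being Lama4 with 0 and 12.3 normalized reads in Mi2 and 6.95 and 14.5 in WT epidermis.

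The type IV collagens form the network of the basement membrane, and in the epidermis the α5 and α6 chains build a separate network beside that of α1 and α2. Col4a6 had 38.5 and 174 normalized reads in the Mi2 libraries, against 676 and 705 in the WT libraries. Col4a5 had 35.8 and 134 normalized reads in the Mi2 libraries, against 223 and 277 in the WT libraries. Both Mi2 libraries were below both WT libraries for either gene, and Mi2 replicate 1 was the lower of the pair. Col4a6 fell by 3.05 ± 0.61 on the log2 scale (limma adjusted p = 0.0127) and was called in every alternative. Col4a5 fell by 1.83 ± 0.55 (adjusted p = 0.0467), but the call ended with either WT library left out (0.119 and 0.158 for replicates 1 and 2), with edgeR (0.0582), without the filter on low values (0.0848) and without the intensity trend (0.103).

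Col4a1 had 92.9 and 159 normalized reads in Mi2 and 144 and 209.8 in WT epidermis, and its groups overlapped (-0.51 ± 0.33, adjusted p = 0.283). Col4a2 had 194 and 178 in Mi2 and 251 and 271 in WT epidermis, with the groups apart (-0.49 ± 0.21, adjusted p = 0.119). Both changes were smaller in size than those of the α5 and α6 chains, and the difference between the pairs was not tested. Col4a2 was called lower with mitochondrial genes left out of the scaling (-0.72, adjusted p = 0.046). Col4a3 and Col4a4, known from kidney and eye, were below the filter, with 8 and 14 reads in all 4 libraries together. The exons of Col4a1 and Col4a2 share 22 bases on opposite strands, and the sources used here do not say whether counting used strand.

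**Figure D2:**
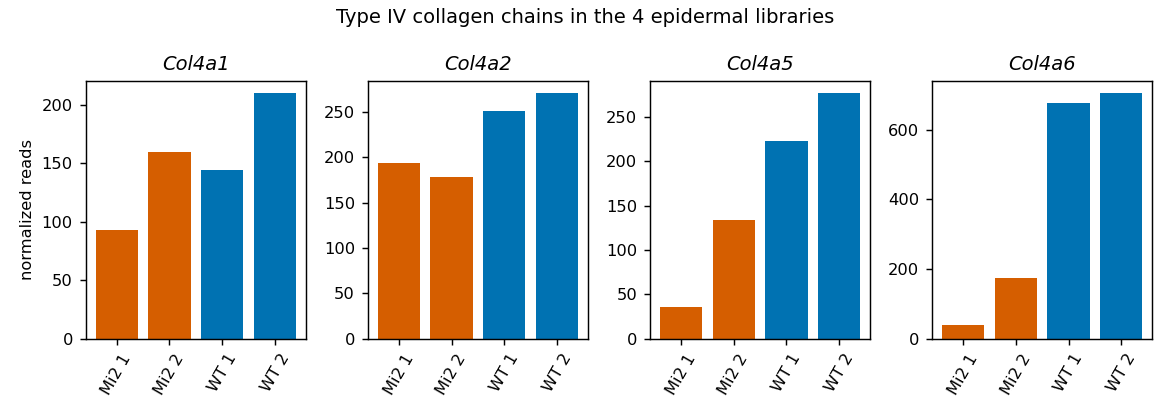
Normalized reads (y axis, from 0, with its own scale for each gene) of the type IV collagen chains in the 4 epidermal libraries, the 2 Mi2 libraries left of the 2 WT libraries. Col4a6 lay at 38.5 and 174 in Mi2 against 676 and 705 in WT, and the Mi2 bars of Col4a1 overlap the range of its WT bars.

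Col18a1, the basement membrane collagen that carries endostatin, had 2433 and 1029 normalized reads in Mi2 and 932 and 923 in WT epidermis. Its excess lay in Mi2 replicate 1, it was not called (0.77 ± 0.38, adjusted p = 0.162) and it was called without Mi2 replicate 2 (1.39, adjusted p = 0.00718). Col15a1, its closest relative, was below the filter.

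Integrin chains were called in 1 direction only in epidermis. Itga7, a laminin-binding α chain known from muscle, had 525 and 214 normalized reads in the Mi2 libraries, against 38.7 and 16.7 in the WT libraries. Itga5, the α chain of the fibronectin receptor, had 159 and 64 normalized reads in the Mi2 libraries, against 13.9 and 31.9 in the WT libraries. Itgb6, the β chain of the TGF-beta-activating integrin αvβ6 of wounded epithelium, had 161 and 247 in the Mi2 libraries, against 36.7 and 69.7 in the WT libraries. In all 3 genes the lowest Mi2 library lay above the highest WT library. Itga7 rose by 3.67 ± 0.53 on the log2 scale (limma adjusted p = 0.00461) and was called in every alternative. Itga5 rose by 2.20 ± 0.55 (adjusted p = 0.0268) and Itgb6 by 1.95 ± 0.38 (adjusted p = 0.012). The Itga5 call ended without WT replicate 1 (0.139), without Mi2 replicate 1 (0.0974), without the filter (0.0534) and without the trend (0.0592), and the Itgb6 call ended without WT replicate 1 (0.0724) and without Mi2 replicate 2 (0.0527).

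Itgb7 and Itga2b are known from leukocytes and platelets. Itgb7, the β chain of α4β7 and αEβ7, had 75.6 and 28.6 normalized reads in the Mi2 libraries, against 0 and 1.45 in the WT libraries. That is 78 recovered reads against 2, a ratio of 62.5 with a 95% exact counting interval from 16.7 to 525, and it was called in every alternative (limma adjusted p = 0.00604). Itgb7 passed the filter only through its Mi2 libraries, so it had to differ. Both known partners of this chain were near 0: Itga4 had 0 and 1.36 normalized reads in Mi2 and 0.992 and 3.63 in WT epidermis, and Itgae 1.33 and 2.72 in Mi2 and 0.992 and 0 in WT epidermis. The T lymphocyte markers, of which 4 of 5 were found, summed to 5.31 and 5.45 normalized reads in the Mi2 libraries, against 16.9 and 13.1 in the WT libraries. None of these markers had enough reads to be tested, and their part in the Itgb7 values was not tested. Itga2b, the α chain of the platelet fibrinogen receptor, had 59.7 and 34.1 normalized reads in the Mi2 libraries, against 12.9 and 8.71 in the WT libraries (1.99 ± 0.47, adjusted p = 0.0223). Of the 4 platelet markers, Pf4, Ppbp and Gp9 were at 0 in all 4 libraries and Gp1bb had 70.3 and 113 normalized reads in the Mi2 libraries, against 254 and 285 in the WT libraries. Itgb3, the usual partner of Itga2b, was below the filter with 1.33 and 4.09 normalized reads in Mi2 and 0 and 3.63 in WT epidermis. The part of platelets in the Itga2b values was not tested. The Itga2b call ended without WT replicate 1 (0.0839) and without WT replicate 2 (0.134).

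The other integrin chains tested in epidermis were not called. Itgb1, the β chain shared by most matrix receptors, had 3596 and 2107 normalized reads in Mi2 and 1626 and 1605 in WT epidermis (0.77 ± 0.28, adjusted p = 0.077), and it was called with DESeq2 (0.0297) and without Mi2 replicate 2 (0.0106). Itga3, the α chain of the second keratinocyte laminin receptor, had 3854 and 2527 in Mi2 and 1874 and 2069.7 in WT epidermis (0.66 ± 0.25, adjusted p = 0.0891), and it was called without Mi2 replicate 2 (0.0184). Both genes had every Mi2 library above every WT library, as Itga6 and Itgb4 had, and Mi2 replicate 1 was the highest library for each. The share of all genes with groups apart in this way is not given, so this does not set these chains apart from other genes. Itgav, the αv chain, had 619.6 and 808 normalized reads in Mi2 and 642 and 788 in WT epidermis. Itgb5, a partner of αv, had 283 and 312 in Mi2 and 313 and 290.4 in WT epidermis. The collagen receptor chain Itga2 had 236 and 189 in Mi2 and 206 and 245 in WT epidermis. For these 3 genes the groups overlapped, and the changes were -0.01 ± 0.22 for Itgav, -0.02 ± 0.20 for Itgb5 and -0.09 ± 0.23 for Itga2, with adjusted p = 0.981, 0.944 and 0.793. Itgb8, Itgam, Itga10, Itgb1bp1 and Itgb3bp, each with a mean under 100 normalized reads in both groups, were not called either, with adjusted p between 0.142 and 0.61.

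Leukocyte integrins outside the test were at the limit of detection with 1 exception. Itgb2, the β chain of all leukocyte β2 integrins, had 26.9 normalized reads in WT replicate 2, which is 37 recovered reads, and 0 in the other 3 libraries. The same library had 182 normalized reads of the myeloid marker Lyz2, against 0.992 to 2.72 in the others. It also had the highest value of Itgam, at 51.5 normalized reads. Of the same marker list, Fcer1g and Cd68 were highest in that library too, and Cd207, Cd74 and Csf1r were not. Cd74 had 337 and 666 normalized reads in the Mi2 libraries, against 169 and 181 in the WT libraries. Of the 4 markers tested it alone was called, higher (limma adjusted p = 0.0192). The part of these markers in the Itgb2 and Itgam values was not tested. Itgam shares 68.7% of its exon bases with the annotated gene Gm49368, so its reads cannot be assigned to it alone. Itgal, Itgax and Itgad each had at most 2.72 normalized reads in any epidermal library.

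The fibrillar collagens are the tensile fibres of dermis and cartilage. Col2a1, the main collagen of cartilage, had 109 and 34.1 normalized reads in the Mi2 libraries, and none in the WT libraries. With 107 recovered reads against 0, and 3 reads allowed in each WT library, it was at least 27.7-fold higher in Mi2 epidermis (limma adjusted p = 0.00322). Col5a1, a regulator of collagen I fibril width, had 370.2 and 268 normalized reads in the Mi2 libraries, against 12.9 and 2.9 in the WT libraries (5.42 ± 0.59, adjusted p = 0.00193). The Mi2 libraries stood clear of the WT libraries for both genes, and both calls held in every alternative. Both genes passed the filter only through their Mi2 libraries, so they had to differ, and neither observation is further support. Put at its bound, Col2a1 leaves the median change of the 45 genes at -0.01.

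Col5a2, whose chain joins that of Col5a1 in collagen V, was below the filter, with 6.63 and 0 normalized reads in Mi2 and 6.95 and 2.18 in WT epidermis. Col1a1, a chain of collagen I, had 18.6 and 4.09 in Mi2 and 72.4 and 12.3 in WT epidermis. Col1a2, its partner, had 39.8 and 0 in Mi2 and 55.6 and 5.81 in WT epidermis. These and Col3a1 (15.9 and 0 in Mi2, 33.7 and 12.3 in WT epidermis) were higher in replicate 1 than in replicate 2 of either group and were not called, with adjusted p = 0.223, 0.504 and 0.196. Without Mi2 replicate 1, which leaves 1 Mi2 library, Col3a1 was called lower (-4.43, adjusted p = 0.0129). Of the 10 fibroblast markers, Dcn, Lum, Dpt, Pdgfra and Pdgfrb had at most 6.95 normalized reads in any library. Sparc, Thy1 and Fbln1 were called higher, and Vim and Postn were not called (log2 change -0.006 and -0.72, limma adjusted p = 0.993 and 0.541). The whole list summed to 4949 and 3729 normalized reads in the Mi2 libraries, against 1455 and 1511 in the WT libraries. Its largest entry in both Mi2 libraries was Sparc, with 2944 and 1711, against 595 and 400 in the WT libraries. Sparc and Thy1 are counted again in lists below. The part of that list in the collagen values was not tested, and in bulk samples fewer cells of a type and less RNA per cell cannot be told apart.

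**Figure D3:**
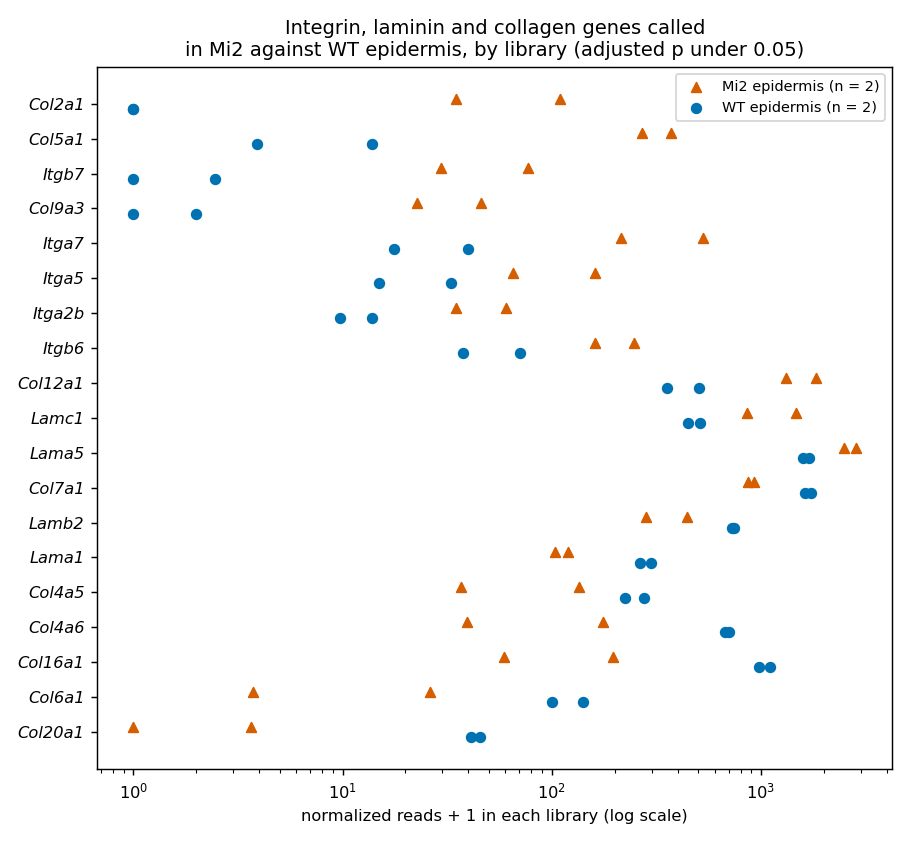
Normalized reads + 1 (x axis, log scale) in each of the 2 Mi2 and 2 WT epidermal libraries for 19 of the 20 genes called, ordered from the largest rise to the largest fall. Mi2 and WT symbols do not overlap in any row, which drawing called genes only favours. The WT symbols of Col2a1 lie at 1, which stands for 0 reads.

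The remaining collagens were called in both directions. Col12a1, a collagen of the fibril surface, had 1828 and 1315 normalized reads in the Mi2 libraries, against 355 and 503 in the WT libraries, and rose by 1.87 ± 0.26 on the log2 scale (limma adjusted p = 0.00404). Col16a1, another fibril-associated collagen, had 58.4 and 196 normalized reads in the Mi2 libraries, against 1103 and 973 in the WT libraries, and fell by 3.26 ± 0.50 (adjusted p = 0.00577). Each of these calls held in every alternative, with no overlap between the groups. Col9a3, a chain of cartilage collagen IX, had 45.1 and 21.8 normalized reads in the Mi2 libraries, against 0.992 and 0 in the WT libraries. This was 50 reads against 1, a ratio of 80.2 with a 95% exact counting interval from 13.7 to 3229 (adjusted p = 0.00728). The gene passed the filter only through its Mi2 libraries, so it had to differ. Col9a3 shares 234 exon bases, 6.07% of its exons, with Tcfl5 on the opposite strand, and Tcfl5 had 379 and 241 normalized reads in the Mi2 libraries and 0 in both WT libraries, so the reads of this pair cannot be told apart where they overlap.

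Col6a1, a chain of the beaded-filament collagen VI, had 25.2 and 2.72 normalized reads in the Mi2 libraries, against 99.2 and 141 in the WT libraries (-3.59 ± 0.83, limma adjusted p = 0.0206). Its partner chains did not share that pattern: Col6a2 was below the filter with 17.2 and 4.09 in Mi2 and 7.94 and 2.9 in WT epidermis, and Col6a3 had 58.4 and 0 in Mi2 and 46.6 and 2.18 in WT epidermis (adjusted p = 0.816). Col20a1, a fibril-associated collagen, had 2.65 and 0 normalized reads in the Mi2 libraries, against 44.7 and 39.9 in the WT libraries, which is 2 reads against 100 and a ratio of 0.0321 with an interval from 0.00383 to 0.119 (adjusted p = 0.00768). Either WT library left out ended the calls of Col6a1 (0.0648 without replicate 1, 0.0853 without replicate 2) and of Col20a1 (0.0968 and 0.0723), and the Col6a1 call also ended without the trend (0.0553). Col23a1, a transmembrane collagen, had 697 and 623 normalized reads in Mi2 and 739 and 425 in WT epidermis, and Col8a1, a short-chain collagen, had 37.2 and 42.2 in Mi2 and 20.8 and 49.4 in WT epidermis. Neither of these was called, and the groups overlapped for both.

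In all, 8 of the 20 calls held in every alternative in which the gene was tested: Col2a1, Col5a1, Col9a3, Col12a1, Itga7 and Itgb7 among the genes that rose, and Col4a6 and Col16a1 among those that fell. Col9a3 was below the filter without Mi2 replicate 1 and was not tested there. Col2a1, Col5a1, Col9a3 and Itgb7 passed the filter only through their Mi2 libraries, which favours a stable call. The share of all called genes that held in this way is not given, so 8 of 20 does not compare these genes with the rest. The 40 genes that were not tested had means of at most 8.43 normalized reads, and 5 of them, Col9a1, Col22a1, Col24a1, Itgb2l and Itgb1bp3, had no reads in any epidermal library. Of these 40, Col11a2, a minor fibrillar collagen of cartilage, had 2.65 and 15 normalized reads in the Mi2 libraries, against 0.992 and 0.726 in the WT libraries, which is 13 reads against 2 and a ratio of 10.4 with an interval from 2.36 to 95.1. It is named because of that value, and the interval covers counting error only.

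Genes that act with these families were counted from lists, among the 14461 genes tested. Of 11 soluble ligands of integrins, 4 were higher and 0 lower. Tnc, the matrix protein tenascin C, had 2206 and 981 normalized reads in the Mi2 libraries, against 22.8 and 20.3 in the WT libraries (6.03 ± 0.38, limma adjusted p = 0.000482). Mfge8, a ligand of αv integrins, had 756 and 559.9 in the Mi2 libraries, against 20.8 and 21.1 in the WT libraries (4.89 ± 0.26, adjusted p = 0.000385), and Thbs1 and Thbs2 were called higher as well. Fn1, the ligand of the integrin with the Itga5 chain, had 34.5 and 98.1 in Mi2 and 117 and 910.3 in WT epidermis and was not called (adjusted p = 0.0802), with its highest value in WT replicate 2.

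Of 9 basement membrane components outside the families, 5 were higher and 2 lower. Nid1, which bridges laminin and collagen IV, had 252 and 98.1 normalized reads in the Mi2 libraries, against 7.94 and 4.36 in the WT libraries (4.52 ± 0.54, limma adjusted p = 0.0027). Sparc, Tinagl1, Hspg2 (perlecan) and Dag1 (dystroglycan) were called higher, and Smoc2 and Agrn (agrin) lower. Among 5 hemidesmosome and anchoring partners only Fermt1, the keratinocyte kindlin, was called, lower, with 517 and 508 in the Mi2 libraries against 815 and 943 in the WT libraries (-0.77 ± 0.19, adjusted p = 0.024). The linker genes Plec and Dst were not called (adjusted p = 0.513 and 0.0709).

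Of 23 genes of integrin activation and focal adhesions, 6 were higher (Actn1, Parva, Ptk2b, Pxn, Zyx and Fermt2) and 2 lower (Fermt1 and Tns1), with a median of 0.27 on the log2 scale. Actn1, which links integrins to actin, had 2062 and 1080.3 normalized reads in the Mi2 libraries, against 228 and 285 in the WT libraries (2.55 ± 0.32, limma adjusted p = 0.00307). Of 9 collagen and laminin receptors that are not integrins, 5 were higher (Cd44, Ddr2, Dag1, Bcam and Sdc1) and 0 lower. Of 6 counter-ligands of leukocyte integrins, 4 were higher (Icam1, Icam2, Vcam1 and Thy1) and 0 lower. Icam1 had 909 and 1029 normalized reads in the Mi2 libraries, against 348 and 434 in the WT libraries (1.31 ± 0.20, adjusted p = 0.00596). Of 19 entries for collagen synthesis and processing, 5 were higher (Pcolce, Plod2, Plod1, P4hb and Plod3) and 3 lower (Adamts14, Leprel1 and Leprel2). Of 15 matrix metalloproteinases, related proteases and inhibitors, 2 were higher (among them Mmp14) and 2 lower (Mmp15 and Mmp28). These shares stand beside a background of 15.1% higher and 13.1% lower and are no test of any list.

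In Tregs, 23 of the 31 integrin names had a mean of at least 10 normalized reads over the 5 libraries and were tested. Between TSLPR WT Mi2 and Ctl Tregs, 6 were called higher and 7 lower, where 27.7% of the 12206 genes tested were called, 14.7% higher and 13% lower. The median change was -0.10 on the log2 scale, against -0.01 over all genes. Without the filter on low values no gene at all passed in any of the 3 Treg comparisons, so all 13 calls rest on that filter. In that setting the integrin names had 7 higher and 7 lower at an unadjusted p under 0.05, and the highest adjusted p among the 13 called genes was 0.285. With edgeR and with DESeq2 on recovered reads, both with the filter, the counts were 6 higher and 7 lower again. Ctla4, one of the 6 Treg markers, was called higher and none lower. All 4 B cell markers were called lower, as were Cd8a and Nkg7 among the 3 NK and CD8 T cell markers tested. The B cell markers summed to 762 and 930.7 normalized reads in the TSLPR WT Mi2 libraries, against 3976 and 1854 in the Ctl libraries. The part of these markers in the integrin values was not tested.

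Itgb5, a β chain that pairs with αv, had 141 and 114 normalized reads in the TSLPR WT Mi2 libraries, against 14.2 and 14.4 in the Ctl libraries. Itgam, the α chain of the β2 integrin Mac-1, had 653 and 546 in the TSLPR WT Mi2 libraries, against 218 and 79.4 in the Ctl libraries. Itga2, the α chain of the collagen receptor α2β1, had 757 and 422 in the TSLPR WT Mi2 libraries, against 194 and 148 in the Ctl libraries. These 3 genes had no overlap between the groups and were called higher by 3.06 ± 0.41, 2.17 ± 0.38 and 1.73 ± 0.31 on the log2 scale (limma adjusted p = 8.36e-05, 0.000703 and 0.000817). Itgam is also a gene of myeloid cells, and of the 5 myeloid markers tested 0 were called higher and 1, Cd74, lower.

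Itga7 and Itga3, laminin-binding α chains, were higher in TSLPR WT Mi2 than in Ctl Tregs. Itga7 had 465 and 361 normalized reads in the TSLPR WT Mi2 libraries, against 159.8 and 119.5 in the Ctl libraries (1.56 ± 0.29, limma adjusted p = 0.00127). Itga3 had 505 and 252 in the TSLPR WT Mi2 libraries, against 97 and 166 in the Ctl libraries (1.48 ± 0.36, adjusted p = 0.00722). Itgae, the αE chain known as CD103 that binds E-cadherin on epithelium, had 13791 and 6343 in the TSLPR WT Mi2 libraries, against 4591 and 5639.6 in the Ctl libraries (0.88 ± 0.29, adjusted p = 0.0372). Replicate 2 of the TSLPR WT Mi2 group was close to the higher Ctl library for Itgae, and without replicate 1 of that group the change was 0.32 with adjusted p = 0.514. The Itgae call also ended without Ctl replicate 1 (0.12) and without the trend (0.165), and the Itga3 call ended without TSLPR WT Mi2 replicate 1 (0.0592), without Ctl replicate 1 (0.0527) and without the trend (0.053).

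Among the genes called lower, Itga4, the α4 chain of VLA-4 and α4β7, had 1000.2 and 2425 normalized reads in the TSLPR WT Mi2 libraries, against 7855 and 5669 in the Ctl libraries. Itga5 had 22.1 and 41.8 in the TSLPR WT Mi2 libraries, against 94.7 and 257 in the Ctl libraries. Itga9, an α chain related to α4, had 3.53 and 21.9 in the TSLPR WT Mi2 libraries, against 60.4 and 93 in the Ctl libraries. All 3 were lower in either TSLPR WT Mi2 library than in either Ctl library, and they fell by 2.10 ± 0.32, 2.32 ± 0.47 and 2.90 ± 0.64 on the log2 scale (limma adjusted p = 0.000244, 0.00202 and 0.0039). Itga10, a collagen-binding α chain, had 26.5 and 20.9 in the TSLPR WT Mi2 libraries, against 103 and 100.2 in the Ctl libraries (-2.06 ± 0.42, adjusted p = 0.00211). In GENCODE, 33.5% of the exon bases of Itga10 are shared with Gm42957 on the same strand, and 68.7% of those of Itgam with Gm49368. Whether this holds for the RefSeq transcripts counted in Tregs was not checked.

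Itgb3, the β chain of the vitronectin receptor, had 842 and 947 normalized reads in the TSLPR WT Mi2 libraries, against 1594 and 1754 in the Ctl libraries (-0.90 ± 0.21, limma adjusted p = 0.00528). Itga6 had 4384 and 4924 in the TSLPR WT Mi2 libraries, against 8499 and 7718 in the Ctl libraries (-0.80 ± 0.20, adjusted p = 0.00877). Itgb2, the partner of αL and αM, had 6901 and 6888 in the TSLPR WT Mi2 libraries, against 9444 and 12498 in the Ctl libraries (-0.66 ± 0.21, adjusted p = 0.0343). The groups were apart for all 3 genes. The Itga6 call ended without TSLPR WT Mi2 replicate 1 (0.0869) and without the trend (0.0522), and the Itgb2 call ended without Ctl replicate 2 (0.195), without either TSLPR WT Mi2 library (0.131 and 0.162) and without the trend (0.109). The other 9 of the 13 calls held in every alternative that kept the filter. The share of all called genes that held in this way is not given, so 9 of 13 does not compare integrins with other genes.

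**Figure D4:**
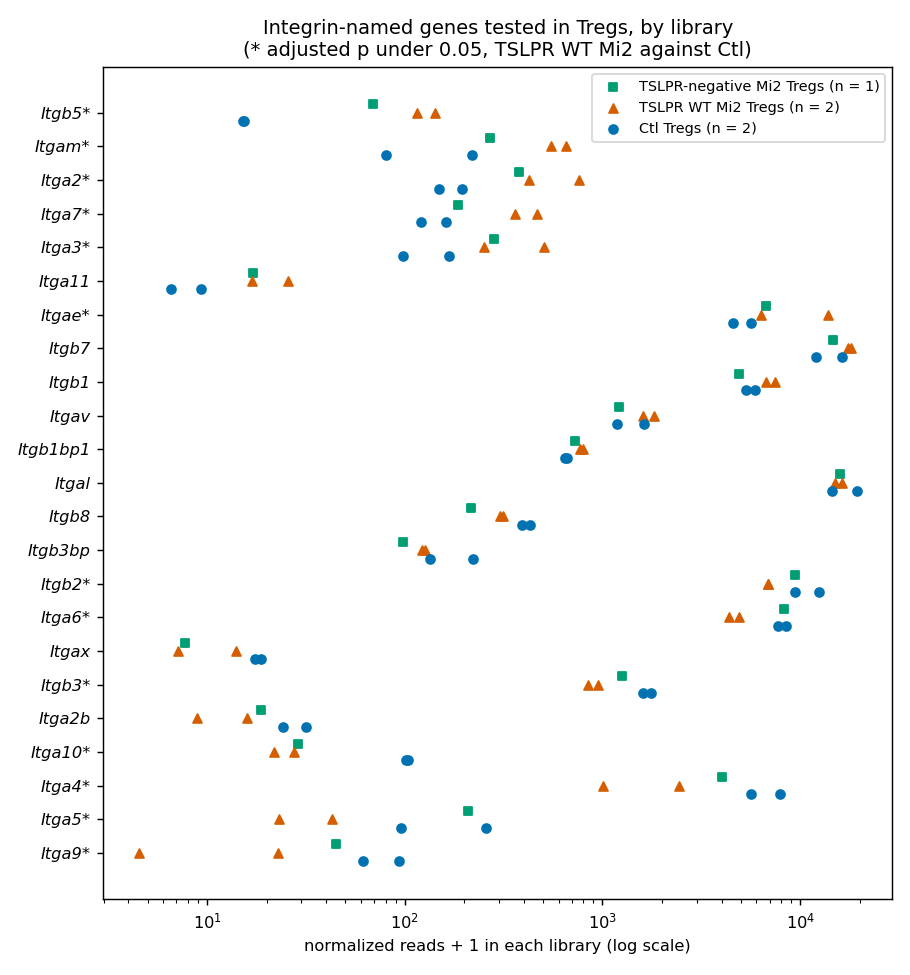
Normalized reads + 1 (x axis, log scale) of the 23 integrin names tested in the TSLPR-negative Mi2 library, the 2 TSLPR WT Mi2 libraries and the 2 Ctl libraries, ordered by the change between TSLPR WT Mi2 and Ctl, with an asterisk for adjusted p under 0.05 in that comparison. Itgb5 stands at the top with 141 and 114 normalized reads against 14.2 and 14.4, and Itga9 at the bottom.

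Itgb7, Itgal and Itgb1, abundant integrin chains of Tregs, were not called. Itgb7 had 14578 normalized reads in the TSLPR-negative library, 17998 and 17437 in the TSLPR WT Mi2 libraries and 11974 and 16223 in the Ctl libraries, and per kilobase it averaged 5487, 6668 and 5306 in these groups. Itgal, the αL chain of LFA-1, had 15915 in the TSLPR-negative library, 15018 and 16234 in the TSLPR WT Mi2 libraries and 14499.7 and 19273 in the Ctl libraries. Itgb1 had 4928 in the TSLPR-negative library, 6738 and 7414 in the TSLPR WT Mi2 libraries and 5918 and 5302 in the Ctl libraries. The TSLPR WT Mi2 and Ctl values of Itgal overlapped, and those of Itgb1 and Itgb7 did not. Adjusted p between TSLPR WT Mi2 and Ctl Tregs was 0.276 for Itgb7, 0.783 for Itgal and 0.235 for Itgb1. Itgav and Itgb8, the chains of a TGF-beta-activating integrin of Tregs, had 1824 and 1594, and 303 and 314, normalized reads in the TSLPR WT Mi2 libraries, against 1626 and 1179, and 391 and 429.9, in the Ctl libraries, and neither was called (adjusted p = 0.343 and 0.258). Itga2b, Itgax, Itga11, Itgb1bp1 and Itgb3bp were not called either (adjusted p between 0.0936 and 0.409), and Itga11, with 24.7 and 15.9 normalized reads in the TSLPR WT Mi2 libraries against 8.28 and 5.61 in the Ctl libraries, was called without the trend (0.025). The 8 names below the filter had means of at most 8.52 normalized reads, and Itga8, Itgb2l, Itgb6 and Itgbl1 had none in any Treg library.

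The TSLPR-negative group has 1 library, which was assumed to vary like the others. Against TSLPR WT Mi2 Tregs, Itga5 was the only integrin name called, with 208 normalized reads in the TSLPR-negative library, against 22.1 and 41.8 in the TSLPR WT Mi2 libraries (2.73 ± 0.57, limma adjusted p = 0.0397), where 0.942% of genes tested were called, 0.737% higher and 0.205% lower. The call ended without the filter (0.452) and without the trend (0.236). Itga4 had 4022 in the TSLPR-negative library, against 1000.2 and 2425 in the TSLPR WT Mi2 libraries, and was not called (1.37 ± 0.39, adjusted p = 0.126). It was called without Ctl replicate 1 (0.0405). Without TSLPR WT Mi2 replicate 2 the comparison is 1 library against 1, with the spread taken from the Ctl pair, and the change was 2.01, from which no call is read. Actn1 and Cd226 were called higher among the lists of focal adhesion and homing genes.

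Against Ctl Tregs, Itgb5 was the only integrin name called, with 68.4 normalized reads in the TSLPR-negative library, against 14.2 and 14.4 in the Ctl libraries (2.18 ± 0.50, limma adjusted p = 0.0277), where 3.15% of genes tested were called, 2.63% higher and 0.516% lower. That call ended without Ctl replicate 2 (0.0503), which leaves 1 library against 1, without the filter (0.351) and without the trend (0.0633). Itga5 had 208 in the TSLPR-negative library, which lies between the Ctl values of 94.7 and 257. The comparisons share libraries: both Mi2 Treg groups are set against the same Ctl libraries, and the TSLPR WT Mi2 libraries enter 2 of the 3 comparisons. The median change of the 23 names was -0.29 between TSLPR-negative and TSLPR WT Mi2 Tregs and -0.07 between TSLPR-negative and Ctl Tregs, against 0.03 and 0.04 over all genes.

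Genes that act with integrins in lymphocytes were counted in the same way between TSLPR WT Mi2 and Ctl Tregs. Of 23 genes of integrin activation and focal adhesions, 4 were higher (Vcl, Tln2, Bcar1 and Flna) and 4 lower (Actn1, Tns1, Ptk2 and Apbb1ip). Vcl, which encodes vinculin, had 526 and 486 normalized reads in the TSLPR WT Mi2 libraries, against 207 and 139.5 in the Ctl libraries (1.57 ± 0.28, limma adjusted p = 0.00088). Actn1 had 578 and 1199 in the TSLPR WT Mi2 libraries, against 3522 and 4243 in the Ctl libraries (-2.21 ± 0.28, limma adjusted p = 5.85e-05), and its groups were far apart. Of 10 other homing and adhesion genes 0 were higher and 2 lower: Cd226, an adhesion receptor, and Ccr7, the chemokine receptor of lymph node entry, with 2872 and 4034 normalized reads in the TSLPR WT Mi2 libraries, against 5597 and 6795 in the Ctl libraries. None of the 5 counter-ligands of leukocyte integrins was called. These counts stand beside 14.7% higher and 13% lower over all genes, and 4 of 23 in either direction is near those shares.

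Set side by side, 15 integrin names were tested in both tables. Itga7 was called higher in Mi2 epidermis (3.67 on the log2 scale) and in TSLPR WT Mi2 Tregs (1.56), and Itga5 was called higher in Mi2 epidermis (2.20) and lower in TSLPR WT Mi2 Tregs (-2.32). No other name was called in both. The tables were normalized separately, and the difference between them was not tested.

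**Figure D5:**
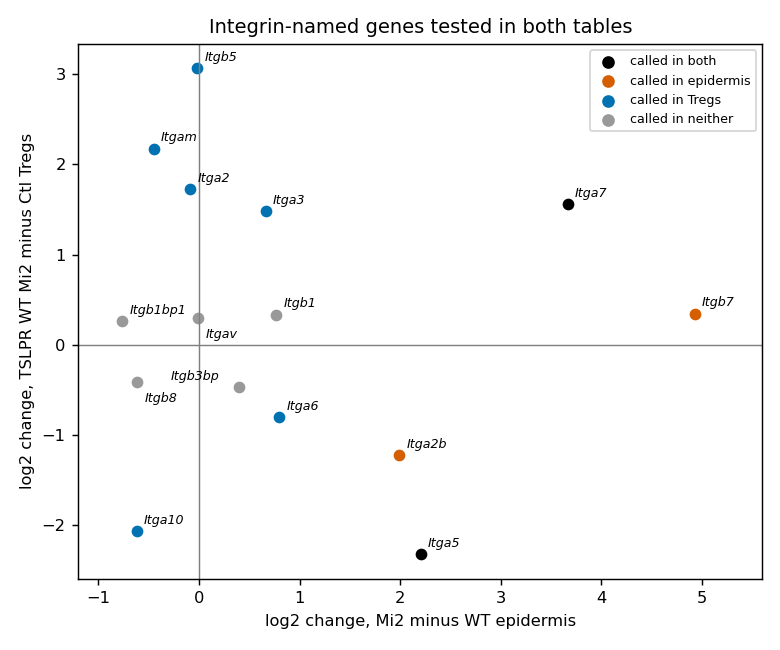
Log2 change between TSLPR WT Mi2 and Ctl Tregs (y axis) against log2 change between Mi2 and WT epidermis (x axis) for the 15 integrin names tested in both tables, coloured by where the adjusted p was under 0.05. Itga7 lies at the upper right and Itga5 at the lower right, and the other coloured names were called in 1 table only.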

How the data were processed

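The deposited signal of both tables is normalized reads: in each library the authors' values are whole reads times a constant. Per the submitters' processing notes, bcl2fastq 1.8.3, STAR, DESeq2 and the builds mm9 and mm10 were used, with no roles given. Per the file headers, Treg reads were counted in exons of RefSeq transcripts on mm9 with HOMER, over 7 libraries of which 5 are used here. Divided by that constant, 100% of values above 0 came within 0.05 of a whole number, and these served as recovered reads. The values being normalized, limma 3.58.1 with an intensity trend (R 4.3.3) was run on log2(value + 1) for genes whose mean was at least 10, in 1 epidermal and 1 Treg fit. edgeR 4.0.16 and DESeq2 1.42.0 on recovered reads, log2(value + 5), no filter, no trend, a replicate block, each library left out and other scalings were alternatives. Exon lengths and overlaps come from GENCODE M21. Genes that share reads with overlapping or similar genes are uncertain. Intervals (95%) and floors (3 reads per library) cover counting error only. The fit was also run on simulated data in which all genes had the same spread and few changed, unlike here. That run says nothing on the error of these calls. Every member was accounted for; named were all called members, the defining members and, per role, up to 4 members not called with the highest mean; list genes were named by smallest p. Members and lists were chosen with earlier results of these data known. A few genes of the tested set and lists are counted but not reported here.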

Additional observations from a re-analysis of the deposited data

Results flagged for a closer look

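In 5 of the 15 integrin names tested in both tables (33.3%) every Mi2 epidermal library lay on 1 side of the WT libraries while every TSLPR WT Mi2 Treg library lay on the opposite side of the Ctl libraries. The log2 changes, epidermis before Tregs, were 1.99 and -1.22 for Itga2b, 2.20 and -2.32 for Itga5, 0.80 and -0.80 for Itga6, -0.76 and 0.26 for Itgb1bp1, and 0.40 and -0.47 for Itgb3bp. Over all 9520 symbols tested in both tables, 1431 (15%) had groups apart in opposite directions in the same way. The difference between the tissues was not tested. Of these 5, only Itga5 had a limma adjusted p under 0.05 in both tables.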

How the results depend on the processing

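The counts under each alternative are given without the share of all genes called in that setting, so they do not compare these genes with the rest. Of the 45 epidermal genes, 12 were called higher and 8 lower. These counts were 12 and 8 with log2(value + 5), 12 and 7 with edgeR, 15 and 9 with DESeq2, 9 and 7 without the filter, 8 and 6 without the trend and 11 and 10 with mitochondrial genes left out of the scaling. With 1 library left out they ranged from 6 (without WT replicate 1) to 17 (without Mi2 replicate 2) higher, and from 2 (without either WT library) to 9 lower. The replicate block gave 13 higher and 10 lower in epidermis and 6 and 7 in TSLPR WT Mi2 against Ctl Tregs. Only 2 pairs exist, same-numbered deviations correlated at 0.12 in epidermis and 0.092 in Tregs across genes, and no label ties the numbers to litters, so the numbers were not taken as pairs. No paired analysis was possible because 1 library stands alone for the TSLPR-negative comparisons. In TSLPR WT Mi2 against Ctl Tregs the counts were 6 and 7, 0 and 0 without the filter, 5 and 5 without the trend, and 4 to 6 and 5 to 7 with 1 library left out. TSLPR-negative against TSLPR WT Mi2 Tregs had 1 higher and 0 lower, with 0 higher without the filter or the trend and 1 to 3 higher with 1 library left out. With a library of the compared pair left out, these comparisons are 1 library against 1, and the lone libraries are assumed to vary like the remaining pair. TSLPR-negative against Ctl Tregs had 1 higher and 0 lower, with 0 higher without the filter or the trend, and 0 to 2 higher and 0 to 1 lower with 1 library left out. At an unadjusted p under 0.05, the unfiltered counts were 7 and 7, 3 and 2, and 2 and 2 for these 3 comparisons. Changes that turned direction were all of genes not called, before or after. In epidermis Col6a3 was 0.31 with edgeR and 0.27 with DESeq2, Itgav 0.0037 with DESeq2 and Col23a1 -0.00096 with mitochondrial genes left out. With 1 epidermal library left out, the log2 change ranged from -3.62 to 2.27 for Col6a3, from -0.20 to 0.18 for Itgav, from -0.092 to 0.050 for Itgb5, from -0.31 to 0.89 for Col8a1, from -0.25 to 0.069 for Itga2, from -0.99 to 0.090 for Itgam, from -0.17 to 0.63 for Col23a1, from -1.36 to 0.13 for Itgb8, from -0.97 to 0.56 for Itga10, from -0.46 to 0.16 for Lamb3 and from -4.29 to 1.06 for Col1a2. In TSLPR WT Mi2 against Ctl Tregs, Itgal ranged from -0.30 to 0.11 with 1 library left out. In TSLPR-negative against TSLPR WT Mi2 Tregs, Itgal was -0.025 with DESeq2, and with 1 library left out the ranges were -0.029 to 0.084 for Itgal, -1.04 to 0.080 for Itgae and -0.84 to 0.17 for Itga3. In TSLPR-negative against Ctl Tregs, Itga6 was -0.0045 with edgeR and -0.039 with DESeq2, and Itgb7 was -0.0096 with DESeq2. There the ranges with 1 library left out were -0.046 to 0.093 for Itga6, -0.15 to 0.28 for Itgb7, -0.42 to 0.039 for Itgav and -0.28 to 0.13 for Itgal. The cause of these changes was not tested. With 1 library left out, Col9a3 (Mi2 replicate 1), Col3a1 (WT replicate 1) and Itga10 (WT replicate 2 or Mi2 replicate 2) fell below the filter and have no value. At 5682391 to 8913804 reads, epidermal genes with a mean under 10 could not be assessed.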
